A study of Mus musculus with 8 samples.

Results

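The subject is the set of cell barcodes that carried 2 or more transcripts of Arl4c in droplet-based single-cell RNA of mouse stomach glands. The rule kept barcodes with 100 or more unique molecular identifiers (UMIs) over the complete gene rows of the table, and took as members those with at least 2 Arl4c UMIs. It found 213 members among 1388 kept barcodes, 15.3% (95% Clopper-Pearson interval 13.5 to 17.4), and the table held 1460 barcodes in all. The members were chosen by their Arl4c counts, so these are given as a description. The label names no cell type and none is given here. The markers Tm4sf20, Il1r1 and Rdh10, named for the set from earlier results on the same table, had higher levels in the members.

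All material had 1 genotype, Atp4bCre; Rosa26NICD; Arid1aflox/flox, at an age of 23 weeks. Cre is driven by the promoter of Atp4b, a proton pump gene of parietal cells. It turns on the Notch intracellular domain from Rosa26 and deletes the floxed part of Arid1a, a subunit gene of the BAF chromatin remodelling complex. Glands were dissociated with collagenase and dispase and sorted for strong EPCAM staining and low Sytox Blue uptake, so the shares describe sorted epithelial cells that excluded a dead-cell dye. The labels list 8 samples, each worded as a gland of a mouse, without saying whether the animals differed. The barcodes carry no sample number and are treated as 1 sample, no barcode occurs in more than 1 column, and the comparisons below have no replicates and no p-value. No genotype can be compared.

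Arl4c encodes a small GTPase of the ADP-ribosylation factor family. At the plasma membrane it recruits cytohesins, exchange factors for other Arf proteins, and it acts on the actin cytoskeleton and on cell shape. In epithelial cells its expression is known to respond to Wnt and growth factor signalling. The gene lies on the minus strand of chromosome 1 (GRCm38, 88673125 to 88702221). The table as used here covers 779 complete gene rows, of which those matched to the annotation lie between 3.10 and 90.0 Mb of this chromosome, so depth below means UMIs of this region.

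Arl4c UMIs were unevenly spread over barcodes. Of 1058 Arl4c UMIs in the kept barcodes, 832 (78.6%) lay in the 213 members. No Arl4c UMI was found in 949 barcodes and exactly 1 in 226. Just inside the threshold, 87 barcodes held 2 UMIs, 70 held 3 to 4 and 56 held 5 or more, up to 20 in 1 barcode. The 56 barcodes with 5 or more made up 4.03% of the kept barcodes and held 39.98% of the Arl4c UMIs. Whether single Arl4c UMIs came from free RNA in the droplets was not tested.

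**Figure D1:**
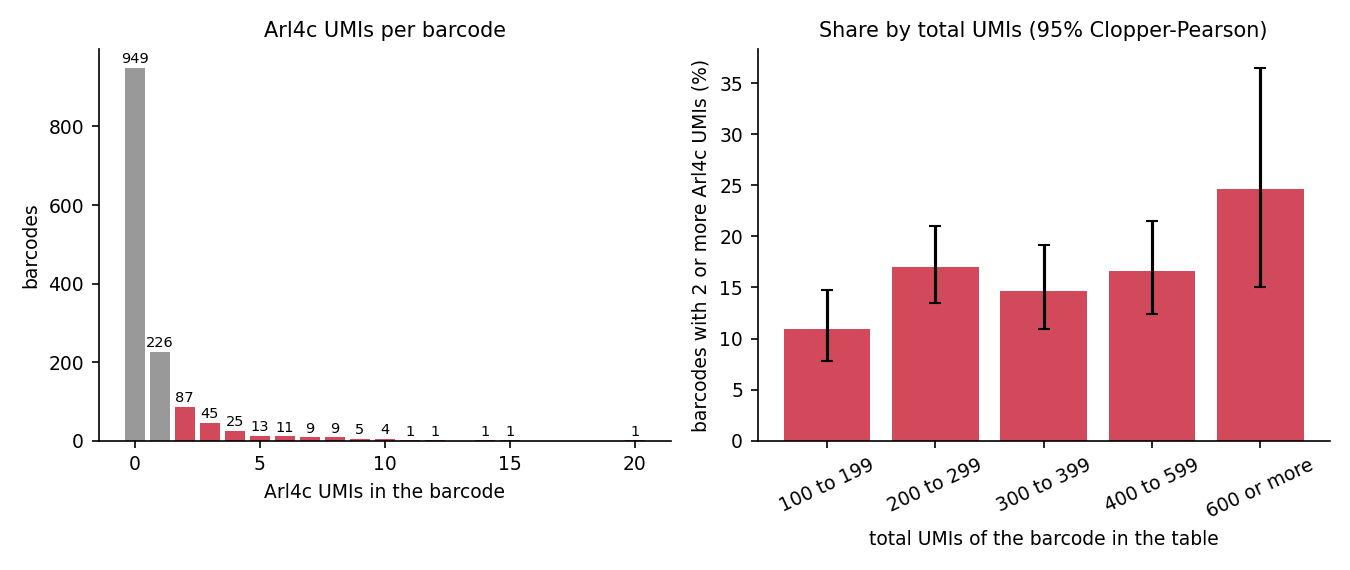
Left, the number of barcodes (vertical axis) by Arl4c UMIs in the barcode, with members in red. Right, the percent of kept barcodes that are members in each bin of total UMIs, with 95% Clopper-Pearson intervals: the share runs from 10.9% in the shallowest bin to 24.6% in the deepest.

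Members were only slightly deeper than barcodes without Arl4c. Their median total was 300 UMIs (111 to 901), against 293 (100 to 999) in barcodes with no Arl4c UMI and 262.5 in those with 1. The share of members was 10.9% (7.76 to 14.8) among barcodes of 100 to under 200 UMIs, 17.0% (13.5 to 21.1) from 200 to under 300 and 24.6% (15.1 to 36.5) at 600 or more. Because 2 UMIs are more easily reached in a deep barcode, every ratio below compares members with barcodes of no Arl4c UMI within 5 bins of total UMIs. At like depth both sets showed like numbers of genes, with medians of 64 and 66 genes from 200 to under 300 UMIs and of 92 and 91 from 400 to under 600. The ribosomal protein genes Rpl7, Rpl31 and Rpl37a together took 40.2% of the UMIs of members and 40.3% of those of barcodes without Arl4c.

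Of 239 other genes with at least 50 UMIs, 31 (13.0%) had a ratio of members to barcodes without Arl4c whose exact 95% interval lay above 1. For 43 genes (18.0%) it lay below 1. A ratio of 1.5 or more was reached by 15 genes (6.28%) and a ratio of 0.667 or less by 28 (11.7%). Both criteria were met by 14 genes on the higher side (5.86%) and by 20 on the lower side (8.37%). The median ratio over the 239 genes was 0.974. Levels are in CPM, UMIs per 1000000 UMIs of the table in the same barcodes, and the ratios assume 1 common ratio over the bins. The intervals cover counting error only and are too narrow where few barcodes hold most UMIs of a gene.

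**Figure D2:**
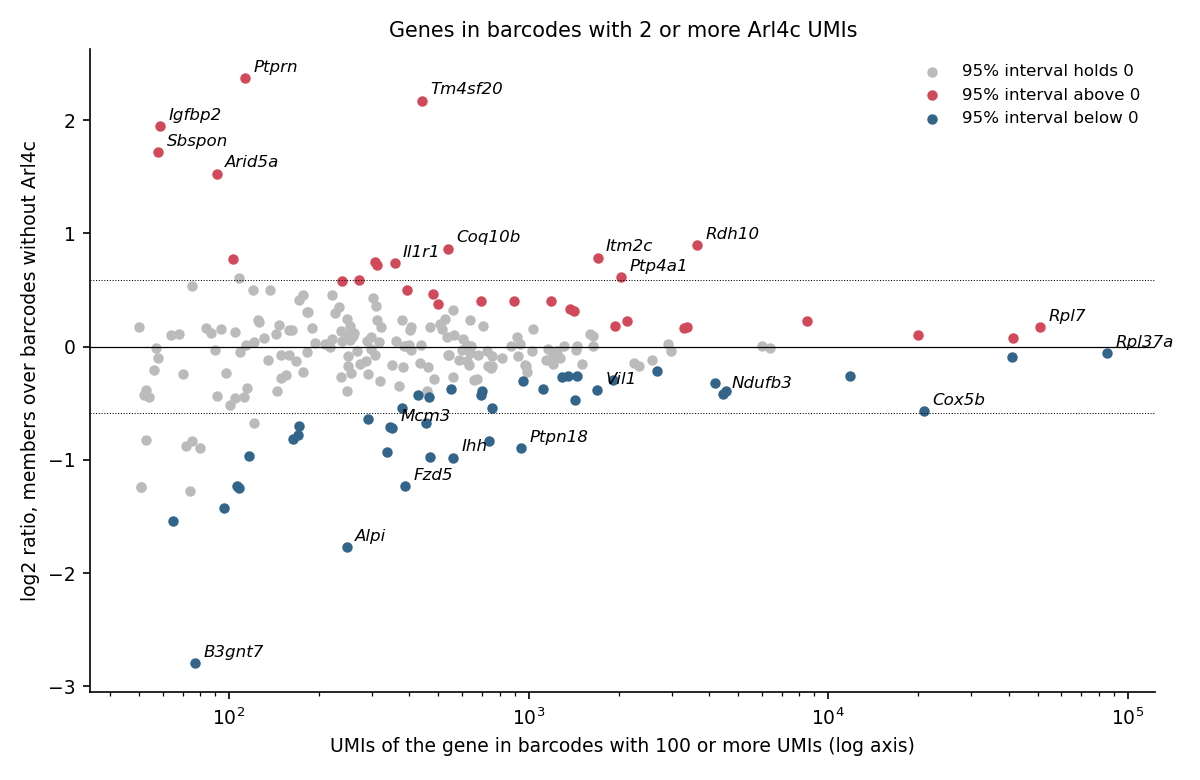
Each point is 1 of 239 genes, by its UMIs in the kept barcodes (horizontal, log axis) and the log2 ratio of members to barcodes without Arl4c within bins of total UMIs (vertical). Red and blue mark genes whose 95% interval lies above or below 0, dotted lines mark 1.5-fold, and Tm4sf20, Rdh10 and Cox5b stand away from genes of like abundance.

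Tm4sf20 and Rdh10 had the highest ratios among genes with more than 400 UMIs. Tm4sf20, which encodes a membrane protein of the transmembrane 4 superfamily (chromosome 1, 82756649 to 82768461), was at 2601 CPM in members and 559 in barcodes without Arl4c, a ratio of 4.51 (3.63 to 5.60). At least 1 Tm4sf20 UMI was seen in 57 of 213 members (26.8%, 20.9 to 33.2) and in 93 of 949 barcodes without Arl4c (9.80%, 7.98 to 11.9). With each barcode thinned to 100 UMIs these shares were 14.1% and 4.43%. Most members thus had no Tm4sf20 UMI, and a single member held 19 of the 188. The ratio was 4.14 (3.27 to 5.25) without the 3 richest barcodes on each side.

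The Tm4sf20 difference varied with depth. From 200 to under 300 UMIs the ratio was 1.45 (0.678 to 2.88), not detectable at this depth. From 400 to under 600 UMIs it reached 9.47 (6.39 to 14.3), with 85 UMIs in members against 38. Tm4sf20 stood above 1 in each of the 5 bins, as did Rdh10.

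Rdh10 encodes a retinol dehydrogenase that oxidises retinol to retinaldehyde, an early step of retinoic acid synthesis. It reached 13017 CPM in members against 7078 in barcodes without Arl4c, a ratio of 1.87 (1.73 to 2.02), from 941 and 2126 UMIs. Per bin the ratio lay between 1.499 (1.27 to 1.76) and 2.47 (1.93 to 3.17), with the interval above 1 in every bin. A UMI of Rdh10 was found in 184 of 213 members (86.4%) and 657 of 949 barcodes without Arl4c (69.2%), or 63.7% and 42.6% after thinning to 100 UMIs. Rdh10 transcripts were therefore common in both sets and denser in members.

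Il1r1 and Klf7 were higher by smaller factors. Il1r1, the signalling receptor for interleukin 1, was at 1203 CPM against 706, a ratio of 1.67 (1.28 to 2.15), with a UMI in 63 members. Klf7, a zinc finger transcription factor of the Krüppel-like family, was at 968 CPM against 619, a ratio of 1.65 (1.23 to 2.19). Neither ratio lay above 1 in all bins: that of Il1r1 was 0.933 (0.493 to 1.66) from 200 to under 300 UMIs, and that of Klf7 was 0.590 (0.107 to 2.19) at 600 or more, each within counting error. Of Tm4sf20, Il1r1 and Rdh10, all had a UMI in 17 members (7.98%) and in 17 barcodes without Arl4c (1.79%), whereas none had in 21 members (9.86%) and 259 barcodes without Arl4c (27.3%).

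The levels of several genes followed the number of Arl4c UMIs, but those of Il1r1 and Klf7 did not rise at each step. With 3 to 4 Arl4c UMIs their ratios to barcodes with none were 1.19 (0.724 to 1.87) and 1.34 (0.790 to 2.16). Both were below the ratios with 2 UMIs, 1.76 and 1.49. Rdh10 was at 7078 CPM (6781 to 7386) with no Arl4c UMI, 8853 (8156 to 9595) with 1, 11261 (10019 to 12615) with 2, 13557 (12130 to 15107) with 3 to 4 and 14558 (12995 to 16258) with 5 or more. Neighbouring intervals overlapped from 2 UMIs upward. Tm4sf20 was at 559 CPM (478 to 651) with no Arl4c UMI, 1282 (1025 to 1583) with 1 and 1512 (1080 to 2058) with 2. It was at 2852 (2219 to 3609) with 3 to 4 and 3651 (2891 to 4550) with 5 or more. Its intervals overlapped between 1 and 2 UMIs and between 3 to 4 and 5 or more. These levels are not split by depth. Within the bins the Tm4sf20 ratios to barcodes with none were 2.77 (2 UMIs), 5.17 (3 to 4) and 5.77 (5 or more). Barcodes with a single Arl4c UMI, just outside the threshold, already had a Tm4sf20 ratio of 2.38 (1.81 to 3.12) and an Rdh10 ratio of 1.24 (1.13 to 1.36) to those with none.

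Cox5b, a nuclear-encoded subunit of cytochrome c oxidase at the end of the respiratory chain, ran the other way. It was at 51376 CPM (50568 to 52193) with no Arl4c UMI, 44743 (43157 to 46373) with 1, 38508 (36180 to 40947) with 2, 36290 (33929 to 38772) with 3 to 4 and 28331 (26132 to 30665) with 5 or more. Over all members its level was 34720 CPM and the ratio 0.675 (0.646 to 0.704). The interval lay below 1 in each of the 5 bins, from 0.589 (0.536 to 0.646) to 0.811 (0.730 to 0.901). Cox5b was among the 8 most abundant genes of the table and was seen in 212 of 213 members, so the difference is one of level and not of presence.

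**Figure D3:**
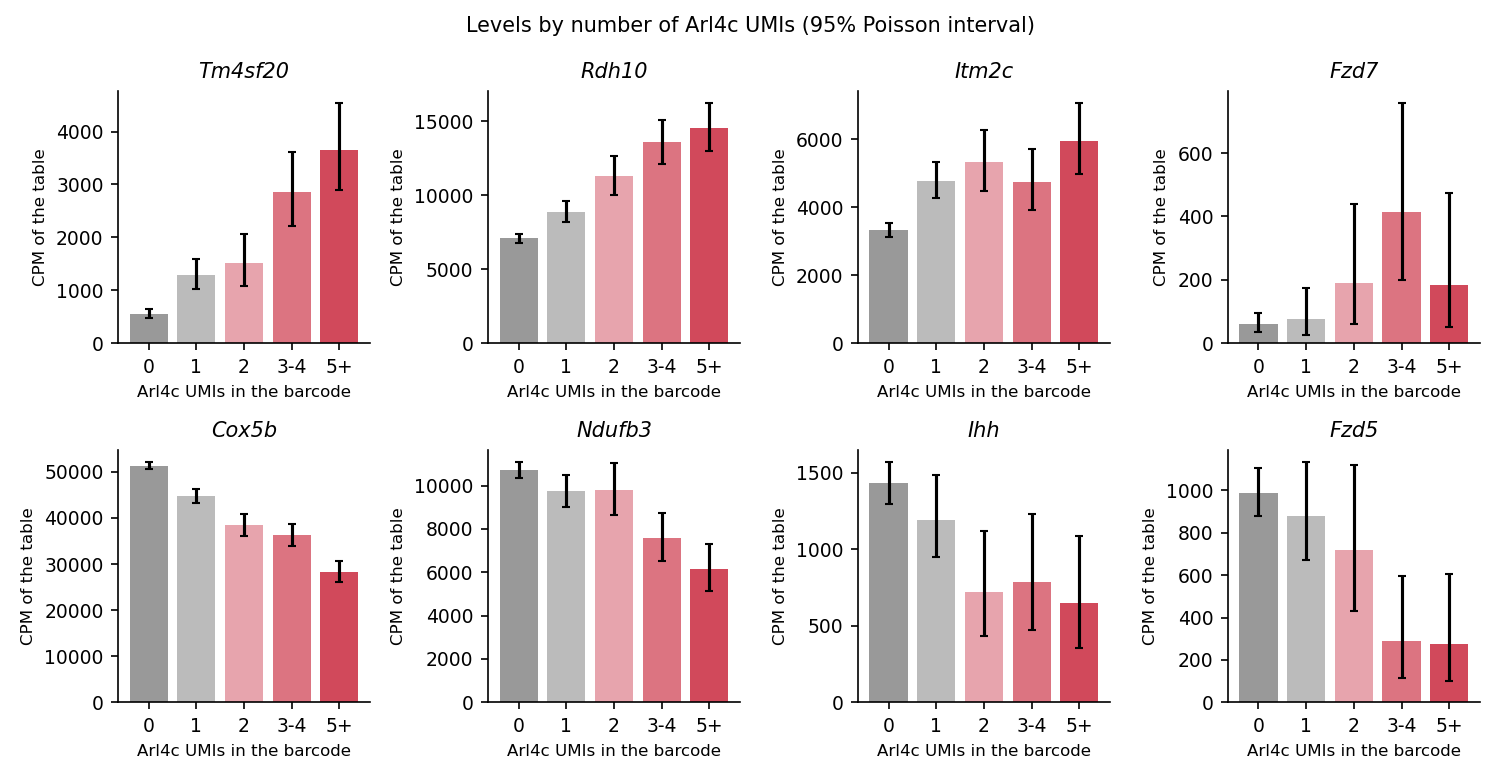
Level of 8 genes in CPM of the table (vertical axes from 0) by Arl4c UMIs in the barcode, with exact 95% Poisson intervals. The values of Tm4sf20 and Rdh10 are higher at each step from 0 to 5 or more, and those of Cox5b lower, though some neighbouring intervals overlap. Fzd7 and Fzd5 differ in opposite directions.

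Of 9 listed genes of the respiratory chain and mitochondrial ribosome, 8 had a row of counts, each with at least 50 UMIs. By the interval, 4 were lower in members, 1 was higher and 3 had an interval that held 1. Over all 239 genes 18.0% were lower and 13.0% higher by the same rule. This rule calls abundant genes more easily, and Cox5b, Ndufb3 and Mrpl30 had 20943, 4449 and 4179 UMIs in the kept barcodes. By ratio, none of the 8 was lower by 1.5-fold or more, beside 11.7% of all genes. Only 1 was higher by as much, beside 6.28%. Cox5b was among the genes the set was described by, and the list was chosen with earlier results known. The list's median ratio was 0.781, against 0.974 over all genes. Besides Cox5b, the complex I subunit genes Ndufb3 and Ndufs1 were lower, at ratios of 0.747 (0.682 to 0.817) and 0.686 (0.546 to 0.855), and the mitochondrial ribosomal gene Mrpl30 was at 0.802 (0.732 to 0.878). The gene Coq10b, for a protein that binds coenzyme Q, went against them: it was at 1881 CPM in members against 1055, a ratio of 1.82 (1.48 to 2.24). The 3 listed genes whose interval held 1 were Mrps9 at 0.887, Mrpl44 at 1.00 and Bcs1l at 0.760. Outside the list, further genes were picked after their values were seen. The mitochondrial ribosomal gene Mrpl15 was at 1.01 (0.879 to 1.15). Coa5, an assembly factor of cytochrome c oxidase, was at 0.761 (0.603 to 0.952). The mitochondrial chaperonin genes Hspd1 (0.763, 0.699 to 0.831) and Hspe1 (0.837, 0.794 to 0.882) were lower as well, while the nucleolar genes Ncl and Nop58 had intervals that held 1.

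The genes with the highest ratios in members after Tm4sf20 included several of low abundance. Arid5a, which encodes an RNA-binding protein with an AT-rich interaction domain, was at 415 CPM against 156, a ratio of 2.89 (1.76 to 4.68) from 30 UMIs in 26 members. Sbspon, for a secreted protein with a thrombospondin domain, was at 277 against 89.9 CPM, a ratio of 3.28 (1.74 to 6.11) from 20 UMIs in 18 members. These UMIs were spread over barcodes, with no more than 3 in any member. Igfbp2, for an insulin-like growth factor binding protein, had a ratio of 3.87 (1.97 to 7.45), but 14 of its 18 UMIs lay in 3 members, and without the 3 richest barcodes on each side the ratio was 1.84 (0.431 to 6.07).

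Among more abundant genes, Itm2c, which encodes a membrane protein with a BRICHOS domain, was at 5326 CPM in members against 3316, a ratio of 1.72 (1.53 to 1.94). In barcodes without Arl4c its level was lower the deeper the barcode, from 7778 CPM in the shallowest bin to 1261 in the deepest, and members stood above them in all bins, by 3.02 (1.91 to 4.80) in the deepest. Ptp4a1, for a phosphatase of the PRL family, was at a ratio of 1.53 (1.37 to 1.71), and Nrp2, the semaphorin and VEGF co-receptor neuropilin 2, at 1.68 (1.25 to 2.23). The ratio was 1.71 (1.01 to 2.81) for Bag2, a co-chaperone of Hsp70, 1.51 (1.11 to 2.03) for the zinc importer gene Slc39a10, and 1.495 (1.06 to 2.07) for Dst, which encodes a plakin that links the cytoskeleton to junctions. These last 3 were near the limit: without the 3 richest barcodes on each side the intervals of Bag2 (0.838 to 2.67), Slc39a10 (0.987 to 1.89) and Dst (0.917 to 1.91) held 1.

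**Figure D4:**
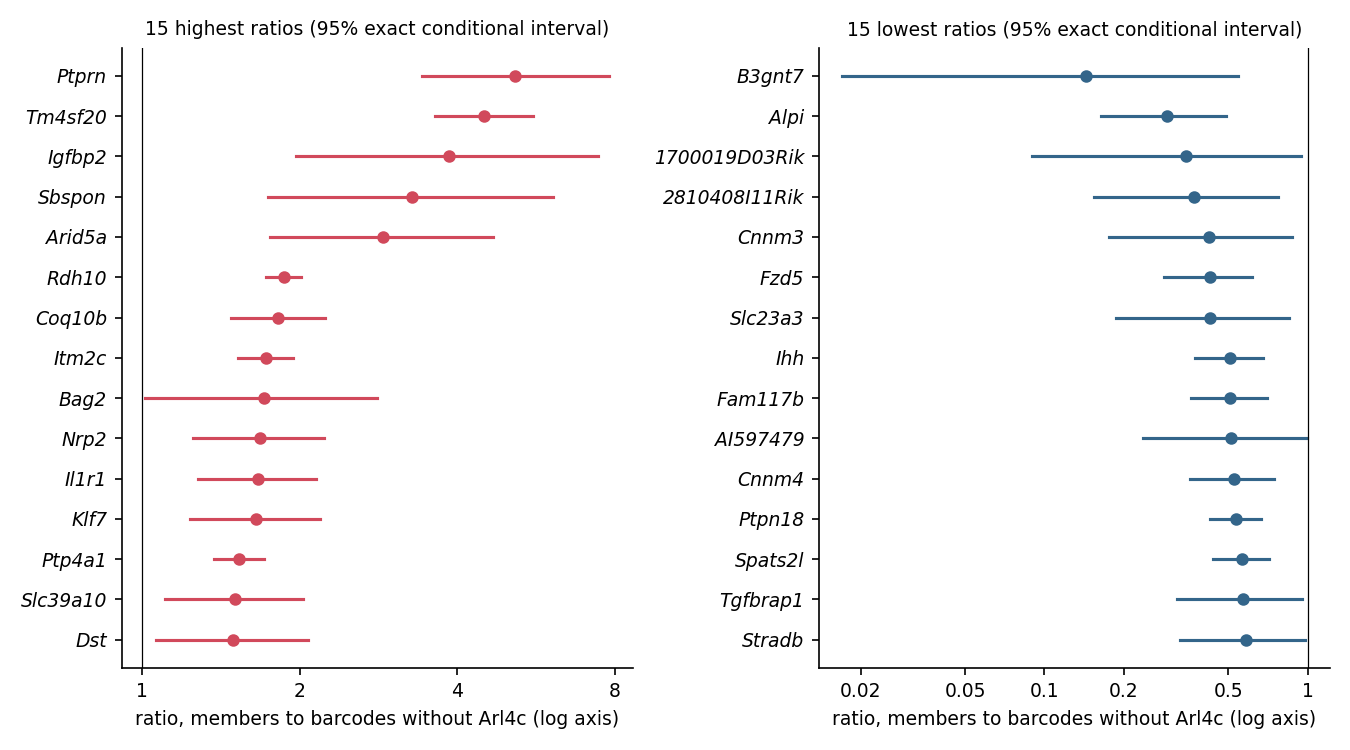
Ratio of members to barcodes without Arl4c (points, log axes that differ between panels) with exact conditional 95% intervals (lines), for the 15 genes with the highest and the 15 with the lowest ratio whose interval excludes 1. Ptprn leads at 5.17 and B3gnt7 is lowest at 0.144.

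The Wnt receptor genes Fzd5 and Fzd7 differed in opposite directions. Fzd5 (chromosome 1, 64730558 to 64737751) was at 443 CPM in members against 985 in barcodes without Arl4c, a ratio of 0.426 (0.285 to 0.615), and its level with 5 or more Arl4c UMIs was 277 CPM (102 to 604). Fzd7 (chromosome 1, 59482424 to 59486955) had only 42 UMIs in the kept barcodes, under the minimum of 50, and is named after its values were seen. It had 19 UMIs in 18 members and 18 UMIs in 17 of 949 barcodes without Arl4c, 263 against 59.9 CPM, a ratio of 4.68 (2.32 to 9.47). Barcodes with 1 Arl4c UMI had 5 Fzd7 UMIs and a ratio of 1.06 (0.306 to 2.98). Within the members 14 of the 19 Fzd7 UMIs lay in the 63 barcodes with an Il1r1 UMI, 532 against 109 CPM, a ratio of 6.76 (2.21 to 24.8). The Wnt ligand gene Wnt10a had 13 UMIs, 12 of them in 3 members and 7 in a single one, too few barcodes to describe the set.

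Ihh, which encodes the secreted signal Indian hedgehog, was also lower in members, at 719 CPM against 1428, a ratio of 0.507 (0.372 to 0.678) that lay below 1 in all 5 bins. Its level with 2 Arl4c UMIs, 718 CPM, was already near that of barcodes with 5 or more, 647. Cnnm4 and Cnnm3, for magnesium transport proteins known to bind PRL phosphatases, were at 0.523 (0.356 to 0.748) and 0.421 (0.175 to 0.873), opposite to Ptp4a1. Cnnm3 was seen in only 8 members, and its interval stayed below 1 in 10 of 13 alternatives, with ratios up to 0.775. A link of either gene with Ptp4a1 was not tested. Spats2l, at 0.561 (0.435 to 0.715), and Fam117b, at 0.508 (0.359 to 0.701), were lower too. The glycosyltransferase gene B3gnt7 had 2 UMIs in members against 59 in barcodes without Arl4c, a ratio of 0.144 (0.0170 to 0.545). The remaining 6 of the 15 lowest, besides Alpi and Ptpn18 below, were Slc23a3, AI597479, Tgfbrap1, Stradb, 2810408I11Rik and 1700019D03Rik, with 4 to 17 UMIs each in members and ratios from 0.345 to 0.583.

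**Figure D5:**
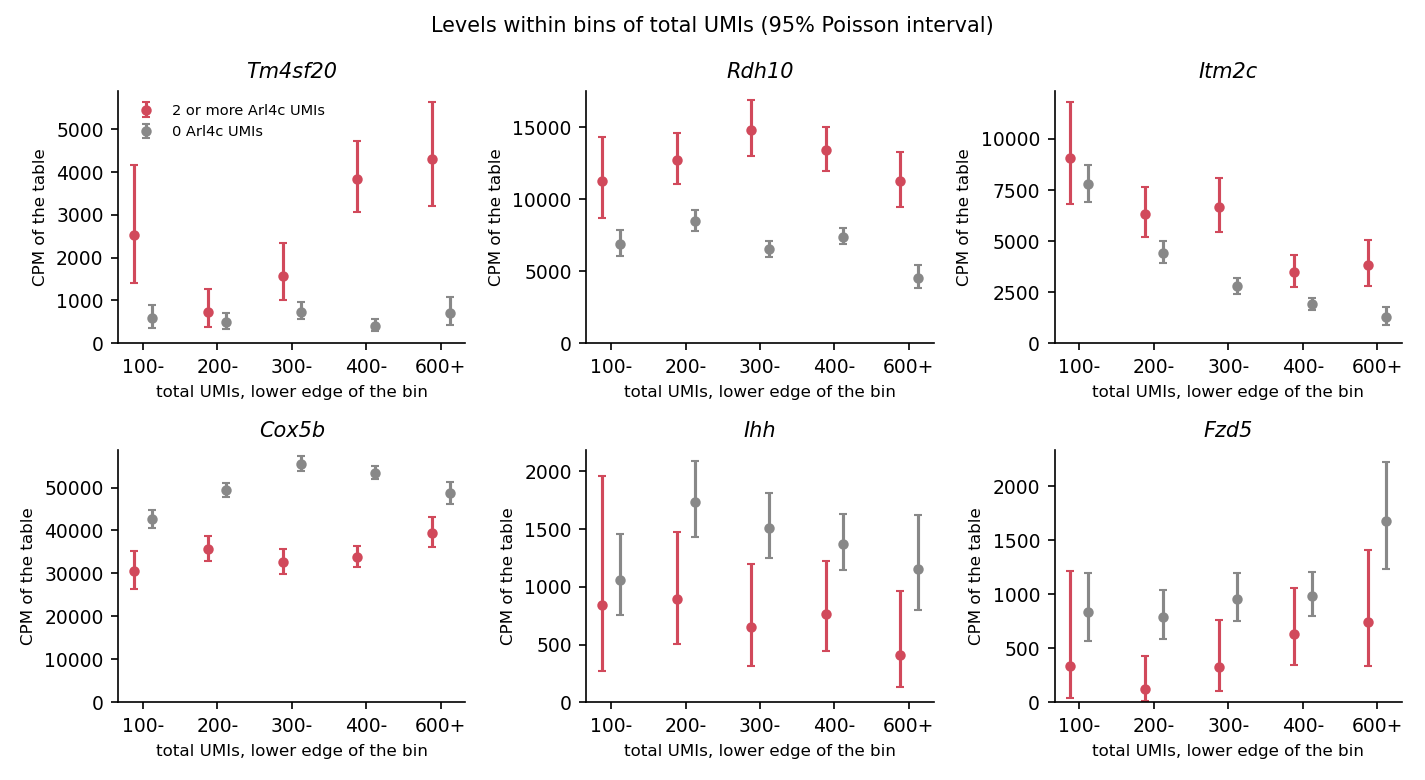
Level of 6 genes in CPM of the table (vertical axes from 0) within 5 bins of total UMIs, for members (red) and barcodes without Arl4c (grey), with exact 95% Poisson intervals. Rdh10 is higher and Cox5b lower in members in all 5 bins, whereas the Tm4sf20 intervals overlap from 200 to under 300 UMIs.

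The stretches before the transcription starts of 4 genes are shown because the animals carry active Notch, whose nuclear partner RBPJ binds TGGGAA, and because Arl4c is known to respond to Wnt signals, whose TCF/LEF factors bind TCAAAG. Both motifs were searched on both strands in the 250 bases before each start in the RefSeq promoter table (GRCm38.p6). Capitals mark the matches, and each sequence reads 5′ to 3′ on the strand of its gene. Apart from Arl4c, the genes shown are ones higher in members that have a match. The windows of Klf7, Ptp4a1, Arid5a, Bag2 and Igfbp2, also higher in members, have neither motif and are not shown. Nrp2, Ptprn and Slc39a10 have a match and are not shown either. Arl4c, chr1:88702192-88702441, minus strand, has neither motif:
Arl4c: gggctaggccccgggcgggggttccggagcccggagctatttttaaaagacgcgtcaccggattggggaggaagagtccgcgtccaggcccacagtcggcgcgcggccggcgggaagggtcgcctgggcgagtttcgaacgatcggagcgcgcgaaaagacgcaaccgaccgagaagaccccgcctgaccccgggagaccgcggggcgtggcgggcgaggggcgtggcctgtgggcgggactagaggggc
Coq10b, chr1:55052520-55052769, plus strand, has TGGGAA:
Coq10b: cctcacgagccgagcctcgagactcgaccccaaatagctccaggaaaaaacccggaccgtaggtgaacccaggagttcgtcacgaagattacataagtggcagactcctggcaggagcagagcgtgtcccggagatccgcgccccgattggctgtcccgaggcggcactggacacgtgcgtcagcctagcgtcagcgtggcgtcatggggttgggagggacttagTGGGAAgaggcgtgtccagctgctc
Il1r1 at the more upstream of its listed starts, chr1:40224830-40225079, plus strand, has TGGGAA, while the window at the other start, chr1:40266336-40266585, has neither motif:
Il1r1: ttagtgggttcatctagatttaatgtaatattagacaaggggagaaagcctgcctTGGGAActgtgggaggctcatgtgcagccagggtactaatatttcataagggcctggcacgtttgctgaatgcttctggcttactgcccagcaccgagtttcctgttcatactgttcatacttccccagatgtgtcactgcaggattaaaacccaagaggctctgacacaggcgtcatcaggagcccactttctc
Itm2c, chr1:85894260-85894509, plus strand, has TCAAAG:
Itm2c: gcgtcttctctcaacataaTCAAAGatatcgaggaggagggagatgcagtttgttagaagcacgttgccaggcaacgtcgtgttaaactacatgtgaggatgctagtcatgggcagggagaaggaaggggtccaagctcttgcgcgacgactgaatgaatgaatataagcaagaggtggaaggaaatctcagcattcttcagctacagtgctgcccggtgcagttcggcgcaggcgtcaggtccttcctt
Over all 32851 promoter windows of this length, 21.6% held TGGGAA and 13.8% held TCAAAG. Of 14 genes with a ratio of 1.5 or more and an interval above 1 (5.86% of 239), 11 were matched in the table, with 15 windows, of which 3 held TGGGAA and 3 held TCAAAG. A ratio of 0.667 or less and an interval below 1 were met by 20 genes (8.37% of 239). Only the 16 named among them were searched. All 16 were matched, with 23 windows, of which 7 held TGGGAA and 3 held TCAAAG. Several of these windows belong to 1700019D03Rik. Those of AI597479 and of 1 start of Tgfbrap1 overlap and share the same TGGGAA match, which is counted for both. A match is a description of letters and not of a bound site.

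Marker genes of other cell types were measured in the same way. The sort marker gene Epcam lies outside the region and was not used here, while Vil1, an epithelial gene, was seen in 117 members. The listed lymphoid genes Ctla4, Cd28, Icos and Stat4 had 0 UMIs in members, which allows up to 3 in their 72293 UMIs, against 28 UMIs in barcodes without Arl4c. Of the fibroblast list, Col3a1 and Col5a2 had 0 and 1 UMI, while the fibronectin gene Fn1 had 60 UMIs in 31 members. The list summed to 844 CPM (645 to 1084) in members against 1075 (961 to 1199), and Fn1 had a ratio of 0.821 with an interval that held 1. Of the muscle list, Des had 0 UMIs and Myl1 had 8 in 3 members, which gave 111 CPM (47.8 to 218) against 146 (106 to 197). The myeloid genes Cxcr2 and Slc11a1 had 4 and 3 UMIs in members, the latter in 1 barcode, against 3 and 1 in barcodes without Arl4c. An alternative left out barcodes counted as another type, 38 of 213 members and 133 of 949 barcodes without Arl4c. The median ratio of all genes was then 0.988. Beyond this alternative, what part such cells have in the ratios was not tested. Ptpn18, a phosphatase gene of the tuft list, was at 0.536 (0.426 to 0.668), while Inpp5d, with 4 UMIs, and Sgk3 had intervals that held 1. Of the list of replication and centromere genes, Mcm3 of the replicative helicase was lower at 0.610 (0.432 to 0.842), and Prim2, Sgol2, Hjurp and Bard1 had intervals that held 1. The 5 genes summed to 1646 CPM (1364 to 1970) in members against 2137 (1975 to 2309).

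Of 3 genes of the enterocyte list with enough UMIs, 2 were lower and none was higher, beside 18.0% lower and 13.0% higher of all 239 genes. The list summed to 3569 CPM (3147 to 4032) in members against 4901 (4654 to 5158). Vil1, the microvillus protein gene, was at 0.765 (0.660 to 0.885), and the sterol hydroxylase gene Cyp27a1 at 1.52 (0.880 to 2.53). Alpi, intestinal alkaline phosphatase, was at 0.293 (0.164 to 0.488), but its 16 UMIs in members lay in 4 barcodes. Without the 3 richest barcodes on each side its ratio was 0.0339 (0.000851 to 0.192). All 16 Alpi UMIs of members lay in members with a Tm4sf20 UMI, and 15 of them in members with a Ptprn UMI. This was not particular to these 2 genes: all 16 also lay in members with an Rdh10 UMI, and 15 in members with an Il1r1 UMI. The glutathione transferase gene Gsta3 had a ratio of 1.00 (0.936 to 1.08) over all bins, which hid opposite values: 0.633 (0.422 to 0.918) from 100 to under 200 UMIs and 1.69 (1.43 to 1.99) at 600 or more. The deepest bin held only 17 members. Over all bins 3 members held 155 of the 985 Gsta3 UMIs, 60 of them in 1 barcode, so these intervals may be too narrow. By Arl4c UMIs the ratio was 1.02 (0.916 to 1.14) with 2, 1.26 (1.13 to 1.39) with 3 to 4 and 0.724 (0.627 to 0.831) with 5 or more.

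Ptprn, whose product sits in the membrane of dense-core granules, had the highest ratio among the 239 genes with at least 50 UMIs, 5.17 (3.43 to 7.81), at 788 against 153 CPM. Its 57 UMIs came from 19 members (8.92%), which had a median of 510.0 total UMIs and at least 343. From 400 to under 600 UMIs members had 36 Ptprn UMIs against 3, while from 100 to under 300 they had 0 against 18. The other granule gene with enough UMIs, Resp18, had 4 UMIs in members and a ratio of 0.414 (0.109 to 1.12), and Scg2 had 0 against 13. The endocrine list summed to 844 CPM (645 to 1084) in members against 380 (313 to 456), with 57 of its 61 member UMIs from Ptprn.

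The members with Ptprn overlapped those with Tm4sf20. Of the 19, 16 also had a Tm4sf20 UMI, and 52 of the 57 Ptprn UMIs lay in the 57 members with Tm4sf20. Ptprn was also higher beside Il1r1, with 33 UMIs in the members with an Il1r1 UMI against 24 in the others, a ratio of 1.86 (1.05 to 3.33). Among members, Tm4sf20 was at 7448 CPM with a Ptprn UMI and 1828 without, a ratio of 3.02 (2.17 to 4.19). Gsta3 was lower with Ptprn, at 0.374 (0.290 to 0.476), and Klf7 had 1 UMI there against 69 in the other members. With barcodes that hold Ptprn left out of both sets, an alternative chosen after seeing the data, the Tm4sf20 ratio was 3.87 (2.99 to 4.99), that of Rdh10 1.84 (1.69 to 2.00) and that of Il1r1 1.68 (1.26 to 2.21). Dst was then at 1.09 (0.716 to 1.62) and Slc39a10 at 1.37 (0.962 to 1.93).

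Members thus differed among themselves. Those with a Tm4sf20 UMI had a median of 406 total UMIs, against 266.5 in the rest. Compared within the bins, they had more Rdh10 (1.33, 1.16 to 1.54) and less Fzd5 (0.0855, 0.00983 to 0.342), Spats2l (0.225, 0.0913 to 0.482) and Cox5b (0.848, 0.774 to 0.928) than members without it. The Fzd5 ratio rested on 2 UMIs against 30, and that of Spats2l on 8 against 68. Members with an Il1r1 UMI also had more Rdh10 (1.29, 1.12 to 1.49), and they had more Gsta3 (1.53, 1.33 to 1.75), more Ihh (2.24, 1.20 to 4.17) and less Tm4sf20 (0.706, 0.505 to 0.979) than those without. Rdh10 was thus higher beside either marker, whereas Gsta3 and Ihh were lower beside Tm4sf20, at 0.651 (0.562 to 0.752) and 0.357 (0.141 to 0.795), and higher beside Il1r1. These subsets were formed after the values were seen.

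Of the listed Arf and Rab GTPases and their regulators, none of the 4 with enough UMIs besides Arl4c had an interval that excluded 1. Over all 239 genes 13.0% had one above 1 and 18.0% below 1. Of the 4, Agap1 was at 1.23 (0.859 to 1.73), Arfgef1 at 0.953 (0.809 to 1.12), Smap1 at 0.898 (0.775 to 1.04) and Rab23 at 0.989 (0.418 to 2.10). Their median ratio was 0.971. In the actin list Arpc2, a subunit gene of the Arp2/3 complex, was slightly higher at 1.17 (1.11 to 1.24), Dst is given above and Vil1 was lower. Of 6 listed transcription factor genes with enough UMIs, Klf7 and Arid5a were higher and none was lower, beside 13.0% and 18.0% of all 239 genes. Klf7 was named beforehand by the rule for the set, so its place in this count was known. Arid5a was at 3.25 (1.65 to 6.01) with 2 Arl4c UMIs, 0.929 (0.184 to 2.90) with 3 to 4 and 5.15 (2.52 to 9.82) with 5 or more. Ikzf2 was at 1.37 (0.9498 to 1.94). In the interleukin receptor cluster, Il1r1 was the 1 gene of 3 with enough UMIs whose interval lay above 1, beside 13.0% of all 239 genes. Il1r1 is a marker named for the set from the same table, so this was known beforehand. Il18r1 was at 1.01 (0.755 to 1.33) and Il18rap at 0.850 (0.448 to 1.51). The decoy receptor gene Il1r2, under the minimum and named after its values were seen, had 11 UMIs in 4 members against 12 UMIs in 6 barcodes without Arl4c, a ratio of 4.48 (1.78 to 11.1). Ccl20, for a chemokine, had a ratio of 1.38 (1.09 to 1.74), with 48 of its 99 member UMIs in 3 barcodes and a ratio of 0.978 (0.706 to 1.33) without the 3 richest on each side. Casp8, an initiator caspase, was at 1.33 (1.09 to 1.61), and its inhibitor gene Cflar at 1.06 (0.834 to 1.34).

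Of the 8 most abundant genes, Cox5b, Hspe1 and Arpc2 are given above, and the ratios of the other 5 lay closer to 1. Rpl7 was at 1.12 (1.10 to 1.15), the elongation factor gene Eef1b2 at 1.08 (1.04 to 1.12) and Ptma, prothymosin alpha, at 1.05 (1.03 to 1.08) times the level of barcodes without Arl4c. Rpl37a and Rpl31 were at 0.961 (0.943 to 0.979) and 0.940 (0.914 to 0.966). With the 3 ribosomal protein genes left out of the totals, the ratio of each of the 15 highest and 15 lowest genes stayed on its side of 1.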

How the data were processed

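The deposited data are raw counts, 1 table with a row per gene and a column per 10x cell barcode, and are read here as UMIs. Cell Ranger, Seurat 2.3.0 and mm10 appear in the submitters' processing notes; filters and roles: not given in the sources used here. For this work the row of Asb18, with 928 of 1460 values, all 0, was left out, which leaves 779 genes, 444786 UMIs and a median of 279 UMIs per barcode (2 to 1082). Columns of values not used: 0. Symbols of 712 rows matched GENCODE vM21 on chromosome 1.

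A floor of 100 UMIs per barcode left 1388 barcodes and 439743 UMIs. No doublets were called. Ratios are conditional maximum likelihood estimates of a common ratio of Poisson rates over bins with edges at 100, 200, 300, 400 and 600 UMIs, with exact conditional 95% intervals (Python 3.11.15, numpy 2.4.6, scipy 1.17.1). The code was checked on counts simulated from the same Poisson model. That check cannot show how the intervals behave where few barcodes hold most UMIs of a gene. Levels carry exact Poisson intervals and shares Clopper-Pearson intervals. All cover counting error only. Thinned shares are exact expectations for 100 UMIs drawn from each barcode. Where no UMI was seen, the limit is 3 UMIs.

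The members and gene lists were chosen with earlier results of these data known. Genes are named if the rule for the set names them, if they are in a list, if they are among the 15 highest or 15 lowest ratios (at least 50 UMIs, interval without 1) or among the 8 most abundant. Alternatives changed the Arl4c threshold, the depth filter, the bins, the denominator, the comparison barcodes and the barcodes left out.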

Additional observations from a re-analysis of the deposited data

Results flagged for a closer look

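The 72 barcodes with fewer than 100 UMIs, outside the comparisons, held 5043 UMIs, and 4 of the 6 genes the set was described by exceeded 595 CPM there, the limit set by seeing no UMI. Arl4c was at 2578 CPM (1373 to 4408), from 13 UMIs in 9 barcodes, beside 2406 (2263 to 2555) in the kept barcodes. Rdh10 was at 9320 CPM (6848 to 12393) beside 8325. Klf7 was at 2578 CPM (1373 to 4408), above its 710 (633 to 793) in the kept barcodes, from 13 UMIs in 13 barcodes. Cox5b was at 35297 CPM (30302 to 40880), below its 47626 (46983 to 48275) in the kept barcodes. Of these shallow barcodes, 63 had no Arl4c UMI. Free RNA in them was not tested.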

How the results depend on the processing

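No paired analysis was possible because the table has no map from barcodes to samples. The number of members was 126 with 3 or more Arl4c UMIs and 439 with 1 or more, against 213. Genes with a ratio of 1.5 or more numbered 25 with a minimum of 20 UMIs per gene, against 15. The lower minimum admits more genes with few UMIs, so these counts have different denominators and their shares were not compared. Genes with a ratio of 0.667 or less numbered 16 with 1 or more Arl4c UMIs and 45 without the 3 richest barcodes of each gene on each side, against 28. That last alternative removes 3 of 213 barcodes on one side and 3 of 949 on the other, and moved the median ratio of all genes from 0.974 to 0.896. Ccl20 changed sides with it (0.978) and without barcodes of another type (0.972). Under 13 alternatives, all 15 highest and all 15 lowest genes kept their direction where a ratio could be had, and 11 and 7 of them kept an interval without 1 throughout. Within the 5 bins of total UMIs, 6 of the 15 highest and 11 of the 15 lowest lay on the same side of 1 in every bin, and Ptprn, Bag2 and Slc39a10 were above 1 in 3 of 5. The ratio of Tm4sf20 ran from 3.20 to 5.43, of Rdh10 from 1.56 to 2.02, of Cox5b from 0.629 to 0.776, of Fzd5 from 0.269 to 0.653 and of Fzd7 from 2.87 to 5.96. Igfbp2 was at 1.36 (0.259 to 4.53) with 3 or more Arl4c UMIs. Ptprn had no ratio where its barcodes were left out. Depth limits the genes with few UMIs, such as B3gnt7 with 2 in members, whose ratio ran from 0 to 0.674.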
